A study of Bos taurus with 12 samples.

Results

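The genes described here are 53 nuclear genes for subunits of the mitochondrial respiratory chain and ATP synthase and for citrate cycle enzymes. They were chosen by symbol and not by a cut on their values, but with earlier results of these data known. There were 17 for complex I, 4 for complex II, 6 for complex III, 8 for complex IV, 11 for complex V and 7 for the citrate cycle. All 53 had exactly 1 probe, and all 53 were among the 13668 genes that entered the tests. On all 12 arrays, 52 of them were above background. The exception was OGDH, whose probe was dim and above background on 2 arrays of each group.

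The citrate cycle oxidises acetyl groups in the mitochondrial matrix and passes electrons to NADH and to succinate dehydrogenase. Complexes I, III and IV move those electrons to oxygen and pump protons across the inner membrane, complex II feeds electrons in from succinate, and complex V uses the returning protons to make ATP. Skeletal muscle depends on this system for sustained work, and slow, oxidative fibres hold more of it than fast, glycolytic fibres. Most subunits are encoded in the nucleus and imported, and a small core set is encoded on mitochondrial DNA.

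The muscle studied was the biceps brachii of 12 bulls, 18 to 20 months old, with 4 animals in each of 3 groups and 1 array for each animal. Controls were untreated. The dexamethasone group was fed 0.75 mg a head of this synthetic glucocorticoid for 42 days. The combination group was fed clenbuterol, a beta-2 adrenergic agonist, for 28 days at doses that went from 2 mg a head (first week) through 4 mg (second week) to 6 mg (weeks 3 to 4), and also dexamethasone at 0.66 mg for 21 days. The treated groups therefore had different doses and durations of dexamethasone besides the clenbuterol. The 12 animals were picked for RNA quality from 24 (8 a group), so they were not drawn at random.

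The arrays were read 1 colour at a time, and between 53.2% and 68.7% of spots were well above background. Levels below are log2 signal relative to the array's own 75th percentile, and differences are log2 changes. Levels of different probes are not set against each other. The tissue label was checked on 10 genes of the contractile apparatus and its energy supply (ACTA1, CKM, TTN, NEB, DES, MYBPC1, MYBPC2, CASQ1, RYR1 and MB): 9 were above background on all 12 arrays and CASQ1 on 10, and MB was saturated on all 12. Their mean level ran from 5.62 to 5.97 in controls, 5.24 to 6.21 with dexamethasone and 5.76 to 6.07 with the combination. The lowest value belonged to dexamethasone replicate 1.

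No gene of the 53 passed the test in any of the 3 comparisons (limma, adjusted p under 0.05 over all 13668 genes). Over all genes, 0.0293% passed as higher and 0.593% as lower with dexamethasone, 0.0146% and 0.0293% with the combination, and 0.0146% and 0% between the treated groups. The measured pattern was small and shared. With dexamethasone, 47 of 53 means were above the control mean, with a median log2 change of 0.17 (1.13-fold). With the combination, 42 of 53 were below the control mean, with a median of -0.10 (1.07-fold). Between the treated groups, all 53 means were lower with the combination than with dexamethasone alone, with a median of -0.28 (1.21-fold). Over all genes tested the corresponding medians were 0.03, 0.03 and 0.02, and 45.4%, 46.3% and 47.7% of genes lay below 0. The 3 comparisons share arrays, so their values are not independent of each other. The 53 genes also varied together from animal to animal, as described further below, so their directions are not 53 separate observations.

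**Figure D1:**
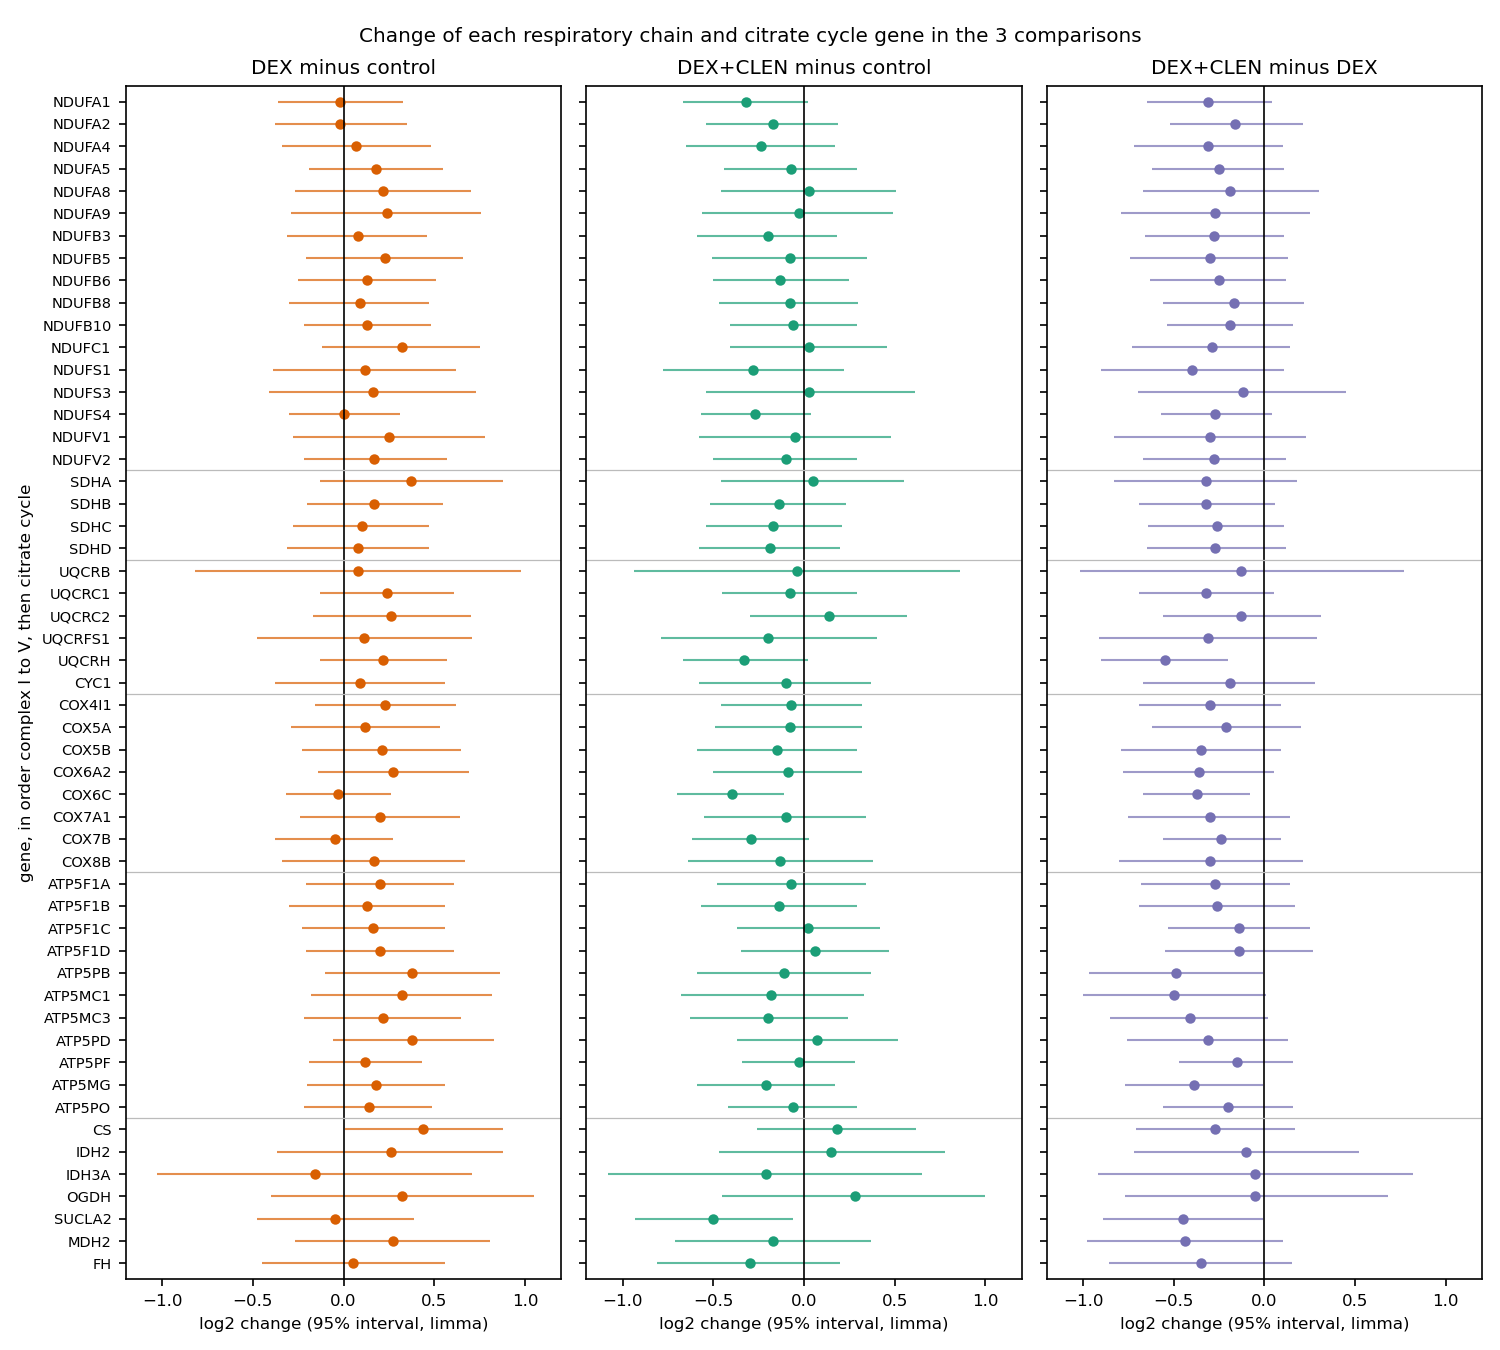
Log2 change of each of the 53 genes (points) with its 95% interval from limma (lines), in rows ordered from complex I to complex V and the citrate cycle, for dexamethasone (DEX) minus control, the combination (DEX+CLEN) minus control and the combination minus dexamethasone, 4 animals per group. In the third panel every point lies left of 0, from -0.55 for UQCRH to -0.05 for OGDH, while 48 of 53 intervals include 0.

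The precision of these differences was limited by 4 animals per group. The median standard error of a difference was 0.20 on the log2 scale. In each comparison, 51 of 53 intervals lay within a log2 change of 1 (2-fold) in either direction. The lowest interval end was -1.08 for IDH3A (combination minus control) and the highest was 1.05 for OGDH (dexamethasone minus control). An interval that includes 0 leaves room for a difference in either direction up to its ends. In bulk muscle, fewer fibres rich in mitochondria and less of a transcript per fibre cannot be told apart.

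Averaged over the 53 genes, the level per animal was 4.55, 4.63, 4.94 and 4.83 in controls (replicates 1 to 4), 4.58, 5.07, 5.08 and 4.88 with dexamethasone, and 4.75, 4.49, 4.87 and 4.40 with the combination. The means were 4.74 ± 0.18, 4.90 ± 0.24 and 4.63 ± 0.22 (SD, n = 4 each). The groups overlapped: 3 dexamethasone animals were at or above 4.88, but dexamethasone replicate 1 sat with the lowest controls. Combination replicate 3 lay at 4.87, above 3 of the 4 controls. Dexamethasone replicates 2 and 3 held the highest value of 12 for 19 and 21 of the 53 genes, against 9.78% and 10.2% of all genes. Combination replicates 2 and 4 held the lowest for 16 and 22, against 6.18% and 10.1% of all genes.

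**Figure D2:**
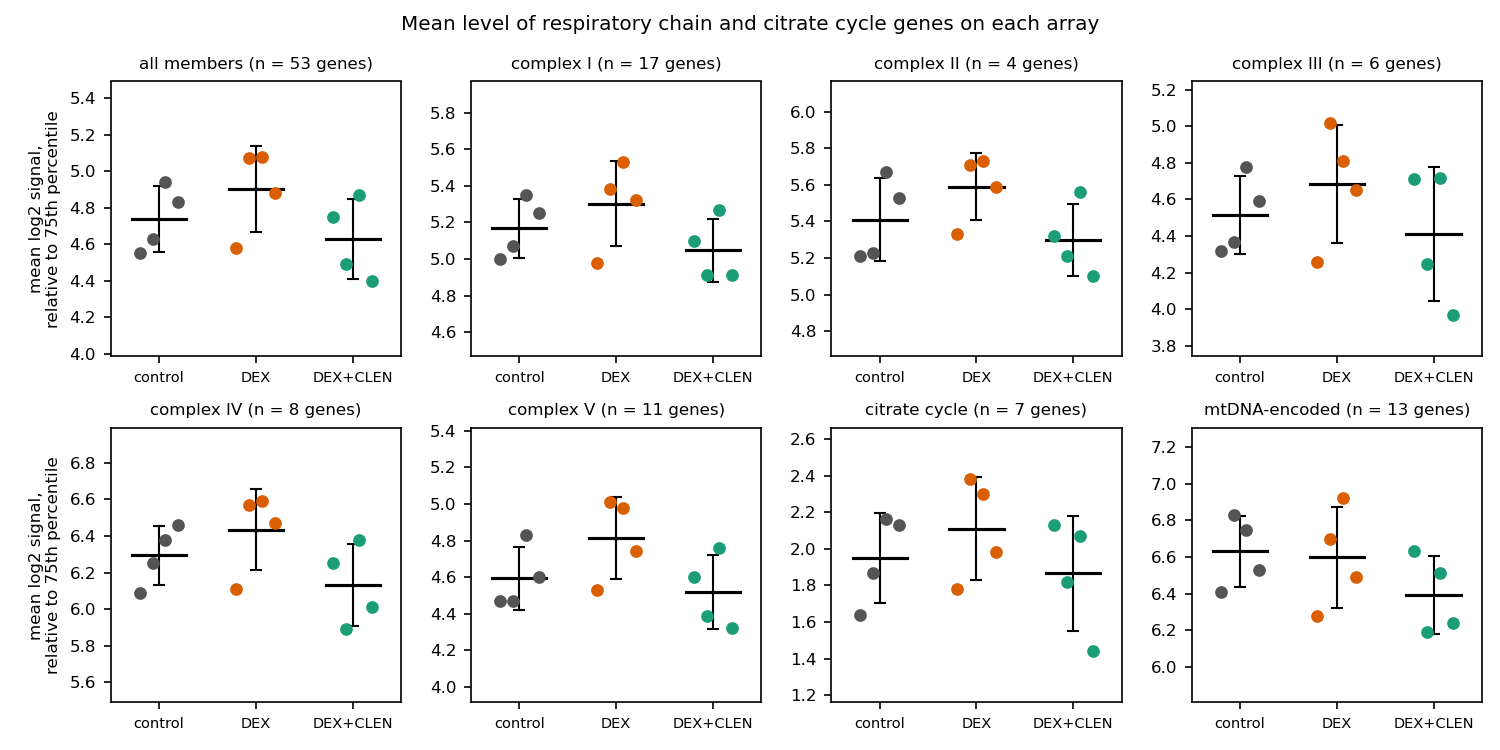
Mean log2 signal, relative to the array's 75th percentile, over all 53 genes, over each complex, over the citrate cycle and over 13 subunits encoded on mitochondrial DNA, for each of 12 animals (points, in replicate order from left to right), with group mean (line) and SD (whisker). Every panel spans the same height on the log2 scale, and dexamethasone replicate 1 lies below the other 3 dexamethasone animals in each.

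Dexamethasone replicate 1 bore on every dexamethasone comparison. Without it the median of the 53 genes was 0.29 for dexamethasone minus control and -0.39 for the combination minus dexamethasone, and it was the lowest array of 12 for 16.4% of all genes. Even so, none of the 53 passed. The closest was SUCLA2, a subunit of succinyl-CoA synthetase, at -0.64 ± 0.16 (SE; limma adjusted p = 0.0934) for the combination minus dexamethasone. UQCRH followed at -0.61 ± 0.17 (limma adjusted p = 0.127).

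Scan day was unevenly spread over the groups. Control replicates 1 to 3 were scanned on day 1. Control replicate 4 and replicates 1 to 3 of both treated groups were scanned on day 2, and the 2 remaining arrays on days 3 and 4. Among the 7 arrays of day 2 alone, the combination minus dexamethasone had a median of -0.22 over the 53 genes, with 49 of 53 below 0. On that day the combination arrays had a slide of their own and the dexamethasone arrays shared theirs with control replicate 4. On the other days, too, no combination array shared a slide with another group. Slide and treatment therefore cannot be told apart in any comparison with the combination. The arrays of the other days, 1 per treated group and each with its own slide and scan day, gave -0.47, with 52 of 53 below 0. For dexamethasone replicate 4, the dexamethasone array of those days, the label code named another slide than the scanner header. The header was used for its slide and scan day. Dexamethasone minus control on day 2, which rests on 1 control and lies within 1 slide, had a median of 0.06, with 20 of 53 below 0. The combination minus control had a median of -0.18 there.

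Complex I, the NADH dehydrogenase, is the entry point for most electrons of the chain. None of its 17 genes passed the test in any comparison (limma adjusted p from 0.525 upward between the treated groups), and 0.0146% of all genes did between the treated groups. Medians were 0.13 with dexamethasone, -0.08 with the combination and -0.27 between the treated groups. In that last comparison all 17 means were lower with the combination, from -0.40 for NDUFS1 to -0.12 for NDUFS3.

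NDUFS1, the large iron-sulphur subunit of the electron input module, had levels of 1.34, 1.52, 2.01 and 1.06 in controls, 1.21, 1.72, 1.59 and 1.86 with dexamethasone, and 1.15, 1.17, 1.60 and 0.87 with the combination. The groups overlapped throughout (combination minus dexamethasone -0.40 ± 0.23, SE; limma adjusted p = 0.571). That difference was -0.20 on scan day 2 and -0.99 on the other days, and the combination minus control turned from -0.28 to 0.24 on scan day 2. NDUFS3, a core subunit of the arm that passes electrons to ubiquinone, showed the opposite extreme. Its levels were 5.57, 5.63, 5.90 and 6.21 in controls, 5.18, 6.21, 6.43 and 6.11 with dexamethasone, and 6.16, 5.71, 5.98 and 5.58 with the combination. Its dexamethasone values held both the lowest (replicate 1) and the highest (replicate 3) of the 12, and the difference between the treated groups was -0.12 ± 0.26, with 0.01 on scan day 2, -0.53 on the other days and -0.39 to 0.02 when 1 animal was left out.

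NDUFA1, a small accessory subunit of the membrane arm, was the 1 complex I gene whose combination animals all lay below all controls. Control levels were 5.69, 5.61, 5.75 and 5.69, and combination levels were 5.37, 5.08, 5.55 and 5.44. The difference was -0.32 ± 0.16 (SE; limma adjusted p = 0.439). Its dexamethasone levels of 5.33, 5.66, 5.89 and 5.80 spread across both groups. NDUFC1, another accessory subunit, had the largest complex I difference with dexamethasone, 0.32 ± 0.20 (limma adjusted p = 0.558). Its control levels were 4.38, 4.34, 4.97 and 4.60, its dexamethasone levels 4.84, 4.51, 5.28 and 4.93, and its combination levels 4.35, 4.66, 4.79 and 4.59, so that the groups overlapped. The 13 other genes counted under complex I gave differences between the treated groups from -0.31 (NDUFA4, placed here by its symbol) to -0.16 (NDUFA2).

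Complex II is succinate dehydrogenase, which is also an enzyme of the citrate cycle. It was represented by all of its nuclear genes: SDHA, the flavoprotein that oxidises succinate, SDHB, the iron-sulphur subunit, and the membrane anchors SDHC and SDHD. All 4 were above the control mean with dexamethasone (median 0.13) and below the dexamethasone mean with the combination (from -0.32 for SDHA to -0.26 for SDHC). SDHA had levels of 5.86, 6.03, 6.60 and 6.68 in controls, 6.35, 6.87, 6.98 and 6.47 with dexamethasone and 6.52, 6.34, 6.55 and 5.95 with the combination. Control replicates 1 and 2 were low and replicates 3 and 4 high, 5 of the 8 treated animals lay between those pairs, and dexamethasone minus control was 0.37 ± 0.23 (SE; limma adjusted p = 0.558). It was 0.05 on scan day 2 and 0.16 with a 2-level scan block. SDHC levels were 5.03, 4.96, 5.46 and 5.16, then 5.04, 5.27, 5.31 and 5.37, then 4.64, 5.01, 5.28 and 5.01, in the same order of groups, and the 3 groups overlapped.

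Complex III passes electrons from ubiquinol to cytochrome c. UQCRH, its hinge subunit, which sits beside cytochrome c1, had the largest difference of the 53 genes between the treated groups. Its levels were 6.13, 6.13, 6.54 and 6.36 in controls, 6.32, 6.56, 6.72 and 6.45 with dexamethasone, and 6.11, 5.75, 6.14 and 5.85 with the combination. Every combination animal lay below every dexamethasone animal, and the controls lay between and overlapped with both. The difference was -0.55 ± 0.16 (SE; 1.46-fold lower; 95% interval -0.90 to -0.20), and it did not pass after adjustment over all genes (limma adjusted p = 0.244). On scan day 2 alone it was -0.53. Over 30 alternative settings, several of which could not move it, it ran from -0.64 to -0.47.

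UQCRB, the ubiquinone-binding subunit, lay at the other end of complex III. Its combination levels were 1.25, 0.21, 0.74 and -0.61, its dexamethasone levels -0.37, 1.43, 0.53 and 0.50, and its control levels 0.14, 0.49, 0.87 and 0.27. The treated animals spread on both sides of the controls, and the difference between treated groups was -0.13 ± 0.41. It was 0.20 on scan day 2, -1.11 on the other days and -0.42 to 0.21 when 1 animal was left out, so it had no settled direction. UQCRB had the largest spread between animals of the 53 genes (SD within groups 0.65), with duplicate spots that differed little (SD 0.067). The core proteins UQCRC1 and UQCRC2, the Rieske iron-sulphur protein UQCRFS1 and cytochrome c1 (CYC1) ran from -0.32 to -0.13 between the treated groups.

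Complex IV, cytochrome c oxidase, hands the electrons to oxygen. All 8 of its genes among the 53 had lower means with the combination than in controls, from -0.40 for COX6C to -0.07 for COX4I1. All 8 also lay below the dexamethasone mean (median -0.30). COX6C, a small transmembrane subunit, had levels of 6.02, 6.13, 6.17 and 6.14 in controls and 6.01, 5.99, 6.12 and 6.21 with dexamethasone. With the combination it had 5.63, 5.55, 5.94 and 5.71, so every combination animal lay below all 8 others. The difference from control was -0.40 ± 0.13 (SE; 1.32-fold lower; limma adjusted p = 0.287), and from dexamethasone -0.37 ± 0.13 (limma adjusted p = 0.337). COX6C also had the smallest spread between animals of the 53 genes (SD within groups 0.12).

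COX7B, another small subunit, had levels of 6.72, 6.67, 6.59 and 6.58 in controls, 6.28, 6.62, 6.71 and 6.75 with dexamethasone, and 6.43, 6.13, 6.51 and 6.33 with the combination. All combination animals lay below all controls (-0.29 ± 0.15, SE; limma adjusted p = 0.454), whereas dexamethasone replicate 1 lay among the combination animals. COX5A, which lies on the matrix side, had the smallest difference between the treated groups in this complex, -0.21 ± 0.19. Its levels were 6.03, 6.21, 6.72 and 6.53, then 6.25, 6.79, 6.48 and 6.46, then 6.28, 6.26, 6.54 and 6.08.

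In the 3 comparisons, 0, 4 and 3 of the 53 genes had groups that did not overlap, all of them lower with the combination. The 4 against control were NDUFA1, COX6C, COX7B and SUCLA2. The 3 against dexamethasone were UQCRH, COX6C and ATP5MG. Over all genes tested, 2.52% were higher and 3.94% lower with dexamethasone than in controls without overlap. With the combination 4.50% were higher and 3.72% lower than in controls, and 2.54% higher and 2.77% lower than with dexamethasone. The counts of 4 and 3 of 53 exceed those shares in the lower direction, over genes that are not independent of each other.

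Striated muscle expresses its own forms of some complex IV subunits. The muscle forms COX6A2, COX7A1 and COX8B were set beside the widely expressed forms COX7A2 and COX8A, which are not among the 53 genes. No probe was found for COX6A1. The muscle forms had differences of -0.36 ± 0.19, -0.30 ± 0.20 and -0.30 ± 0.23 between the treated groups (SE; limma adjusted p from 0.527 to 0.694). COX6A2 levels were 6.04, 6.10, 6.14 and 6.38 in controls, 6.00, 6.53, 6.79 and 6.44 with dexamethasone and 6.24, 5.76, 6.28 and 6.03 with the combination. COX7A1 levels ran 6.62, 6.79, 7.17 and 7.19, then 6.76, 7.24, 7.40 and 7.18, then 6.92, 6.53, 7.17 and 6.74 in the same order. COX8B levels ran 5.64, 6.08, 5.86 and 6.23, then 5.74, 6.27, 6.30 and 6.15, then 6.20, 5.26, 6.17 and 5.64. For all 3 muscle forms the groups overlapped.

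The widely expressed form COX7A2 had levels of 2.31, 2.30, 2.34 and 2.08 in controls, 2.57, 2.55, 3.45 and 2.60 with dexamethasone, and 1.85, 2.05, 1.99 and 1.65 with the combination. The 3 groups were fully separate, with dexamethasone highest and the combination lowest. The difference between the treated groups was -0.91 ± 0.21 (SE; 1.88-fold lower; limma adjusted p = 0.163). COX8A differed by -0.54 ± 0.21 (limma adjusted p = 0.375), with levels of 2.03, 2.10, 1.94 and 1.62 in controls, 2.31, 2.25, 2.77 and 1.95 with dexamethasone and 2.19, 1.70, 1.78 and 1.47 with the combination. Whether the muscle and widely expressed forms differed in their response was not tested.

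Complex V is the ATP synthase, with a catalytic head in the matrix, a ring of c subunits in the membrane and stalks that join them. All 11 genes had means above control with dexamethasone (median 0.20, from 0.12 for ATP5PF to 0.38 for ATP5PD) and below dexamethasone with the combination (median -0.27, from -0.50 for ATP5MC1 to -0.14 for ATP5F1C). The catalytic subunit ATP5F1B, with levels from 7.25 to 8.10 over all animals, gave 0.13 ± 0.20 and -0.26 ± 0.20 in those comparisons. Its partner ATP5F1A gave 0.20 ± 0.19 and -0.27 ± 0.19.

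ATP5MC1, 1 of the genes for the c ring, had levels of 6.32, 6.41, 6.70 and 6.67 in controls, 6.36, 7.23, 7.22 and 6.58 with dexamethasone, and 6.60, 6.15, 6.63 and 6.02 with the combination. Dexamethasone replicates 2 and 3 stood above all other animals. The difference between treated groups was -0.50 ± 0.23 (SE; limma adjusted p = 0.457). ATP5MC3, which encodes the same mature c subunit, gave -0.41 ± 0.20.

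ATP5PB, of the outer stalk, had levels of -0.14, -0.24, 0.42 and 0.08 in controls, 0.11, 0.53, 0.31 and 0.68 with dexamethasone, and -0.16, -0.59, 0.21 and 0.21 with the combination. The treated groups overlapped through dexamethasone replicate 1 (difference -0.49 ± 0.22, SE; limma adjusted p = 0.442). ATP5MG, a membrane subunit near the c ring, had levels of 4.98, 4.78, 5.40 and 4.87 in controls, 4.99, 5.16, 5.44 and 5.15 with dexamethasone, and 4.69, 4.59, 4.97 and 4.93 with the combination. Every combination animal lay below every dexamethasone animal, although the nearest values were 4.97 and 4.99 (-0.39 ± 0.17, SE; limma adjusted p = 0.442).

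ATP5PD, also of the outer stalk, had levels of -0.82, -0.82, -0.69 and -0.97 in controls, -0.44, -0.37, -0.06 and -0.89 with dexamethasone and -0.51, -0.85, -0.48 and -1.16 with the combination. Its dexamethasone minus control difference of 0.38 ± 0.20 (limma adjusted p = 0.474) was 0.68 on scan day 2 and -0.11 on the other days. ATP5F1C, the central shaft, had levels of 5.88, 5.91, 6.16 and 5.97, then 5.82, 6.42, 6.27 and 6.06, then 6.17, 5.93, 6.27 and 5.64, and its groups overlapped. Its difference of -0.14 between the treated groups was -0.05 on scan day 2 and -0.42 on the other days.

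In the citrate cycle, CS, citrate synthase, which joins acetyl-CoA to oxaloacetate, had the largest difference of the 53 genes with dexamethasone. Its levels were 4.71, 4.78, 5.31 and 5.16 in controls, 5.06, 5.44, 5.87 and 5.36 with dexamethasone and 5.02, 5.29, 5.33 and 5.02 with the combination. Dexamethasone minus control was 0.44 ± 0.20 (SE; 1.36-fold higher), with overlap between dexamethasone replicate 1 and the 2 highest controls, and it did not pass (limma adjusted p = 0.395; 0.622% of all genes passed in this comparison). It was 0.30 on scan day 2.

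SUCLA2 forms the ATP-producing succinyl-CoA synthetase. Its levels were 3.55, 3.72, 3.80 and 3.73 in controls, 3.07, 4.07, 3.72 and 3.75 with dexamethasone and 3.43, 3.0, 3.28 and 3.11 with the combination. All combination animals lay below all controls (-0.50 ± 0.20, SE; 1.41-fold lower; limma adjusted p = 0.366; 0.0439% of all genes passed in this comparison). Dexamethasone replicate 1 lay among the combination animals, and the other 3 dexamethasone animals lay at or above 3.72.

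The remaining citrate cycle enzymes gave no separate groups. Between the treated groups, mitochondrial malate dehydrogenase (MDH2) differed by -0.44 ± 0.25, fumarase (FH) by -0.35 ± 0.23, and the isocitrate dehydrogenases IDH2 and IDH3A by -0.10 ± 0.29 and -0.05 ± 0.40. The FH difference was -0.22 on scan day 2 and -0.75 on the other days, that of IDH2 was 0.03 on the other days and that of IDH3A was 0.17 on scan day 2. For IDH3A, the catalytic subunit of the NAD-dependent enzyme, control levels were tight, from -1.46 to -1.33. Its dexamethasone levels were -2.62, -0.31, -1.66 and -1.54 and its combination levels -1.07, -1.71, -1.29 and -2.27, so treated animals spread widely on both sides. IDH3A was singled out after its values were seen. OGDH, of the oxoglutarate dehydrogenase complex, was at the edge of detection, with levels from -6.13 to -4.35 and duplicate spots that differed by an SD of 0.388. Its levels were -6.13, -4.64, -5.41 and -5.20 in controls, -4.83, -5.14, -5.06 and -5.06 with dexamethasone, and -4.35, -5.31, -4.81 and -5.81 with the combination, and they carry little information: the difference between the treated groups, -0.05, was 0.19 on scan day 2 and -0.76 on the other days.

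**Figure D3:**
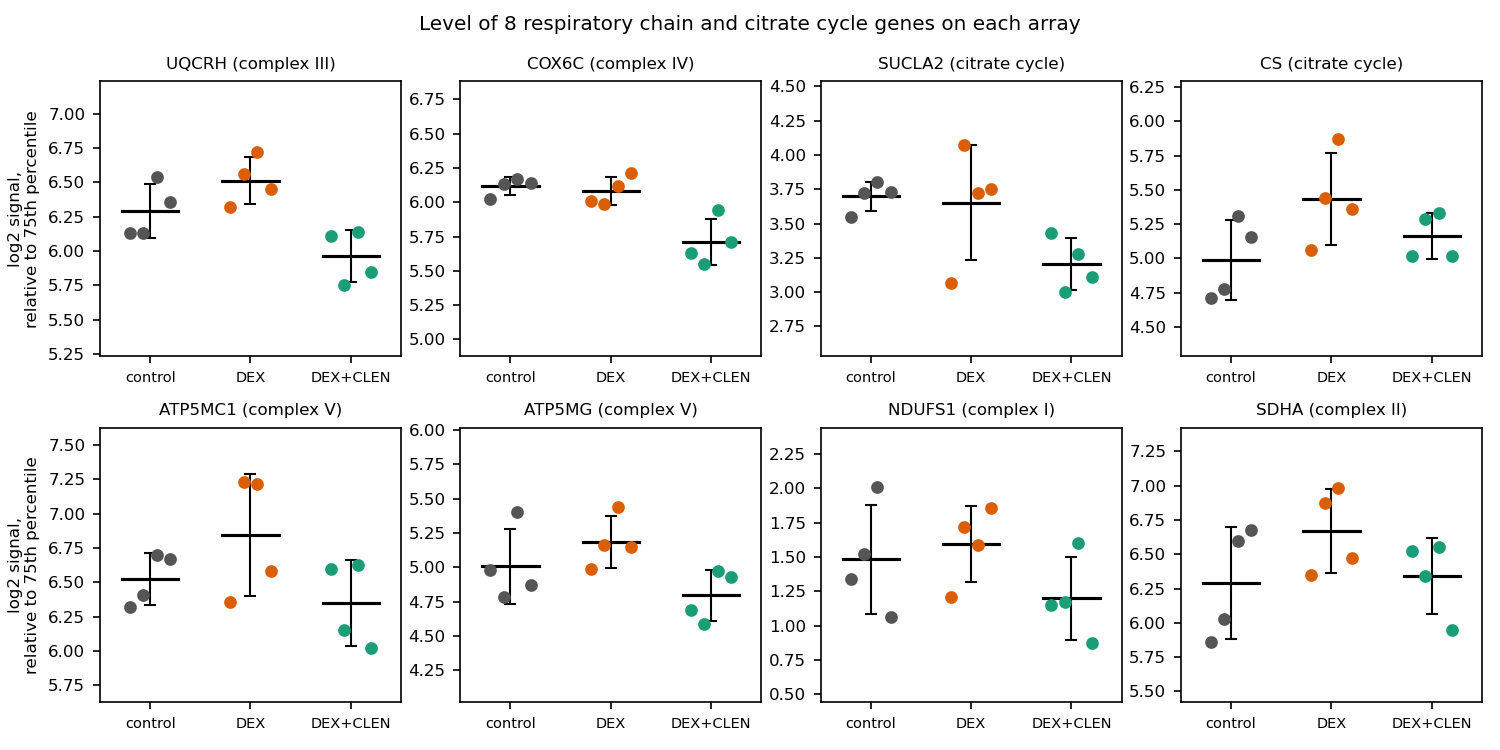
Log2 signal, relative to the array's 75th percentile, of UQCRH, COX6C, SUCLA2, CS, ATP5MC1, ATP5MG, NDUFS1 and SDHA in each of 12 animals (points, in replicate order), with group mean (line) and SD (whisker); every panel spans 2 log2 units. For COX6C all 4 combination animals, at 5.55 to 5.94, lie below the other 8, and for UQCRH they lie below all 4 dexamethasone animals.

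At an unadjusted p under 0.05, 1 gene of the 53 was higher with dexamethasone (CS), 2 were lower with the combination than in controls (COX6C and SUCLA2) and 5 were lower than with dexamethasone (UQCRH, COX6C, SUCLA2, ATP5MG and ATP5PB). Over all genes the shares were 5.46% higher and 6.88% lower with dexamethasone, 6.97% higher and 5.17% lower with the combination, and 6.70% higher and 4.32% lower between the treated groups. The first 2 counts are below those shares, and the last, 5 of 53, is above. None of the 53 was called under any of the alternative settings that had a test.

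The 53 genes varied together across animals. The median Pearson correlation between pairs over the 12 arrays was 0.65, and 0.61 after group means were removed, against 0.01 for pairs of all genes tested. These are descriptions over arrays that share scaling and RNA quality. Within complexes the median ran from 0.47 for the citrate cycle to 0.74 for complex IV. The gene that followed the mean of the other 52 most closely was NDUFB6, an accessory subunit of complex I (r = 0.97), followed by SDHB, COX4I1 and ATP5MC1 (each r = 0.95). OGDH (0.28), IDH2 (0.44), NDUFC1 (0.47) and COX6C (0.54) followed it least. COX6C, the only 1 of the 53 whose combination animals lay below all 8 others, was thus among the 4 that tracked the rest least. The median spread between animals within groups was 0.266 for the 53 genes and 0.347 for all genes.

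**Figure D4:**
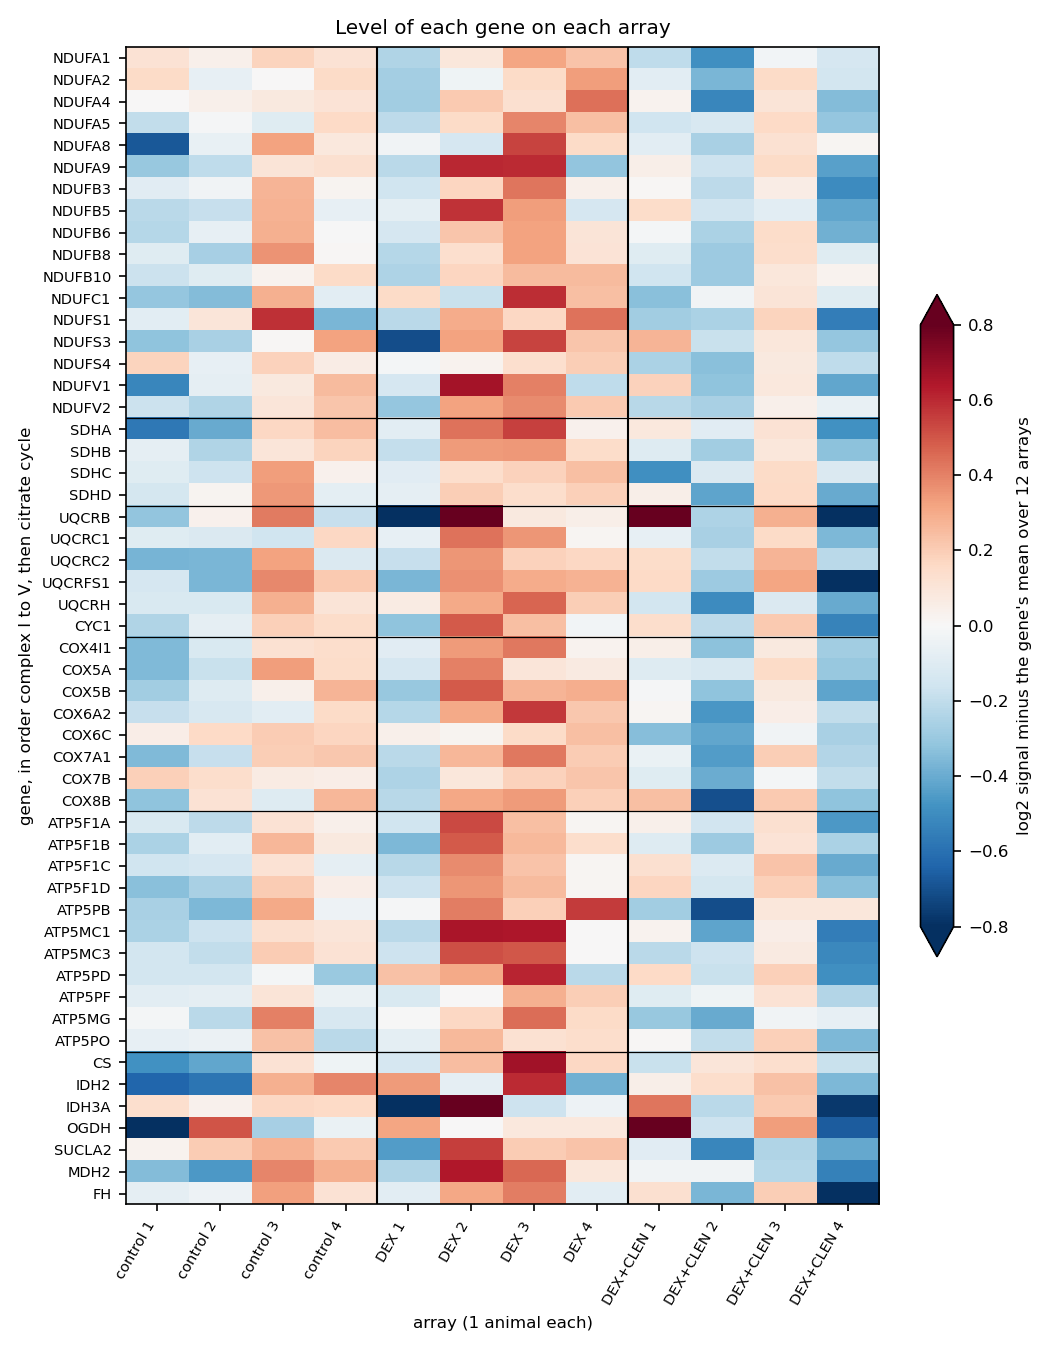
Log2 signal of each of the 53 genes (rows, ordered from complex I to complex V and the citrate cycle) on each of 12 arrays (columns), minus the gene's own mean over the arrays; red is above and blue below that mean, and colours saturate at 0.8. Columns tend to have 1 colour from top to bottom: dexamethasone replicates 2 and 3 are mostly red and combination replicates 2 and 4 mostly blue, and UQCRB, IDH3A and OGDH reach the ends of the scale.

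Outside the lists considered here, the 5 genes whose levels were most like the mean of the 53 over the 12 arrays were GOT1, the cytosolic aspartate aminotransferase (r = 0.910), AIFM1, a flavoprotein of the mitochondrial intermembrane space (0.910), PMPCA, a subunit of the peptidase that trims imported proteins (0.900), APOOL, a cristae protein (0.900), and FAM162A (0.889). GOT1 had levels of 5.37, 5.19, 5.35 and 5.43 in controls, 5.18, 5.88, 5.95 and 5.55 with dexamethasone and 5.20, 4.93, 5.59 and 4.81 with the combination. Between the treated groups GOT1 differed by -0.51 ± 0.21 and AIFM1 by -0.47 ± 0.21 (SE; limma adjusted p = 0.404 and 0.427).

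The other nuclear genes of the same machinery were examined as lists. None of the genes on these lists passed in any comparison. For the 21 other complex I subunits, medians were 0.18 with dexamethasone, -0.07 with the combination and -0.28 between the treated groups, and all 21 were lower with the combination than with dexamethasone. For 8 other complex V genes the medians were 0.18, -0.01 and -0.15, with all 8 lower in the last comparison. For 12 other citrate cycle and pyruvate dehydrogenase genes they were 0.09, -0.22 and -0.43, with 10 of 12 lower. For 11 other genes of complex III, cytochrome c and complex IV they were 0.19, 0.02 and -0.23, with 9 of 11 lower.

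The exceptions in that last list were COX4I2 and NDUFA4L2, forms known to be induced by low oxygen. They had differences of 0.69 ± 0.47 and 0.58 ± 0.28 between the treated groups (SE; limma adjusted p = 0.640 and 0.473), which turned to -0.54 and -0.26 on the other scan days than day 2. CYCS, somatic cytochrome c, which carries electrons from complex III to complex IV, lay at 3.62, 3.65, 3.89 and 3.44 in controls, 3.21, 4.10, 4.06 and 3.58 with dexamethasone and 3.35, 2.90, 3.19 and 2.60 with the combination. All combination animals lay below all controls (-0.64 ± 0.23; limma adjusted p = 0.325), by -0.29 on scan day 2 and -1.12 on the other days. These 3 genes were singled out after their values were seen. Over the 105 nuclear subunit and enzyme genes together, 101 were lower with the combination than with dexamethasone.

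The 13 subunits encoded on mitochondrial DNA had medians of -0.02 with dexamethasone, -0.14 with the combination and -0.14 between the treated groups. In the last comparison 12 of 13 were below 0, from -0.75 for ND6 to 0.01 for ATP8, with a median SE of 0.21. The mean level of the 13 per animal ran from 6.41 to 6.83 in controls, 6.28 to 6.92 with dexamethasone and 6.19 to 6.63 with the combination. ND6, which lies on the opposite DNA strand from the others, had control levels of -1.57, 0.16, -1.61 and -1.60, so that control replicate 2 stood far above the rest, and its difference between the treated groups turned to 0.22 on the other scan days than day 2. Whether nuclear and mitochondrial genes differed in their response was not tested.

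Around the chain itself, 15 assembly factors had medians of 0.16, -0.01 and -0.21 in the 3 comparisons, and 23 genes of import, carriers and mitochondrial mass 0.22, 0.06 and -0.21. ATPAF1, an assembly factor of the ATP synthase, had levels of 1.16, 1.12, 1.37 and 1.21 in controls, 0.96, 1.52, 1.27 and 1.60 with dexamethasone and 0.93, 0.84, 0.88 and 0.28 with the combination. Its combination animals lay below all 8 others (-0.60 ± 0.19 against dexamethasone, SE; limma adjusted p = 0.280), by -0.37 on scan day 2 and -1.32 on the other days.

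Regulators of mitochondrial biogenesis, 12 genes, had medians of 0.12, -0.10 and -0.38. Their mean level per animal was -0.02 to 0.45 with dexamethasone and -0.42 to -0.27 with the combination, without overlap, and -0.50 to -0.02 in controls. The probe matched to ESRRG by its gene number is described in the files as a related receptor; without it the means were 0.00 to 0.34 with dexamethasone and -0.37 to -0.14 with the combination. TFB2M, a transcription factor of the mitochondrial genome, had levels of 1.52, 1.41, 1.48 and 1.13 in controls, 1.44, 1.61, 1.79 and 1.47 with dexamethasone and 1.08, 1.07, 0.96 and 0.63 with the combination. All combination animals lay below all others (-0.64 ± 0.16 against dexamethasone, SE; 1.56-fold lower; limma adjusted p = 0.179). Against control the TFB2M difference was -0.45, with -0.10 on scan day 2 and -0.83 on the other days.

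PPARGC1A, the coactivator that drives the expression of these genes, varied far more between animals: 6.71, 6.02, 4.18 and 5.55 in controls, 3.59, 5.63, 5.99 and 6.88 with dexamethasone and 2.81, 4.42, 2.52 and 5.98 with the combination. Its difference of -1.68 ± 0.84 from control did not pass (limma adjusted p = 0.442), and the groups overlapped. It was -2.30 on scan day 2 and turned to 0.34 on the other days. ESRRA, a nuclear receptor that acts with it, was higher in all dexamethasone animals than in all controls (3.55, 4.36, 4.52 and 3.52 against 3.05, 3.32, 3.51 and 3.34), by 0.68 ± 0.26 (limma adjusted p = 0.313), and by 0.22 on the other scan days than day 2. These 2 genes too were singled out after their values were seen.

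Among 9 genes of the hypoxic and glycolytic switch, the medians were 0.17, -0.12 and -0.33. PDK4, which inactivates pyruvate dehydrogenase by phosphorylation, was lower in every treated animal than in every control (controls 4.24 to 5.26, dexamethasone 2.25 to 3.68, combination 2.75 to 3.69). Its differences of -1.60 ± 0.35 and -1.41 ± 0.35 did not pass (limma adjusted p = 0.0752 and 0.186). The first passed with quantile normalization and in the authors' table (0.0497 each), with a trend in eBayes (0.0485) and with scaling to fibre markers (0.0450, or 0.0382 without MB and CASQ1). The PDK4 differences were -2.36 and -2.20 on scan day 2, and -0.99 and -0.73 on the other days. PDK4 was named for its size after its values were seen.

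The mean levels of fibre type and other cell markers differed between groups, mostly with overlap, and their part in the values above was not tested. Slow fibre markers, 9 genes, had a mean level of 4.48, 4.92, 5.63 and 4.62 in controls, 6.19, 5.75, 6.12 and 4.81 with dexamethasone and 6.16, 5.19, 6.01 and 5.19 with the combination. The median change was 0.71 with dexamethasone, 0.26 with the combination and -0.12 between the treated groups. With dexamethasone the changes ran from -0.59 for MYL3 to 2.41 ± 1.13 (SE) for CASQ2, with 8 of 9 above 0. Dexamethasone replicate 1 had the highest slow fibre markers of the 12 animals (6.19) and a mean of the 53 genes of 4.58, the lowest of its group. Fast fibre markers, 7 of 10 with a tested probe, had medians of -0.36, 0.25 and 0.18 and group ranges of 4.88 to 5.90, 4.19 to 6.14 and 5.23 to 6.52. Their changes with dexamethasone ran from -0.98 for TNNT3 to 1.15 ± 0.37 (SE) for MYH4, with 6 of 7 below 0. Within the controls alone TNNT3 ran from 0.99 to 6.69. No slow or fast fibre marker passed in any comparison, and for each of them the groups overlapped.

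The 8 fibroblast markers had a mean level of 1.66, 1.85, 1.85 and 1.40 in controls, 1.38, 0.68, -0.04 and -0.38 with dexamethasone and 0.61, 1.28, 1.03 and 1.74 with the combination. All 8 were lower with dexamethasone than in controls (median -1.27) and all 8 were higher with the combination than with dexamethasone (median 0.83), in the opposite direction to the 53 genes. The 7 leukocyte markers had group ranges of -2.53 to -1.98, -4.51 to -1.82 and -3.42 to -2.72 and medians of -1.13, -0.73 and 0.26. Among them CD3E, of the T cell receptor complex, was the 1 marker that passed with dexamethasone (-1.74 ± 0.31, SE; limma adjusted p = 0.0305). The CD3E probe was dim, and above background on 3 of the 4 dexamethasone arrays. Its duplicate spots differed by an SD of 0.537, against 0.47 between animals within groups. The CD3E call was lost on scan day 2 alone, with either scan block, with quantile normalization, normexp background, the authors' table or no filter on dim probes, and without any 1 control or dexamethasone replicate 2 or 3; the difference ran from -1.88 to -0.77. CD3E was higher with the combination than with dexamethasone without overlap, by 1.24 ± 0.31 (limma adjusted p = 0.179). Endothelial markers had group ranges of -1.38 to -0.97, -1.31 to -0.68 and -1.11 to -0.69. Adipocyte markers (4 of 7 tested) ran from -3.63 to -2.18, -3.74 to -0.25 and -4.27 to -1.75, smooth muscle and pericyte markers from 0.72 to 1.19, 0.82 to 1.23 and 0.73 to 1.80, and the 2 globin genes tested from -2.04 to -0.91, -3.07 to -0.94 and -2.53 to 0.54. The skeletal muscle fibre markers had medians of 0.04, 0.07 and 0.03. When every array was centred on those 10 fibre markers in place of the 75th percentile, the median of the 53 genes was 0.12, -0.21 and -0.32 in the 3 comparisons, and 53 of 53 lay below 0 in the last. Without the saturated MB and the dim CASQ1 it was 0.17, -0.19 and -0.35, again with 53 of 53.

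**Figure D5:**
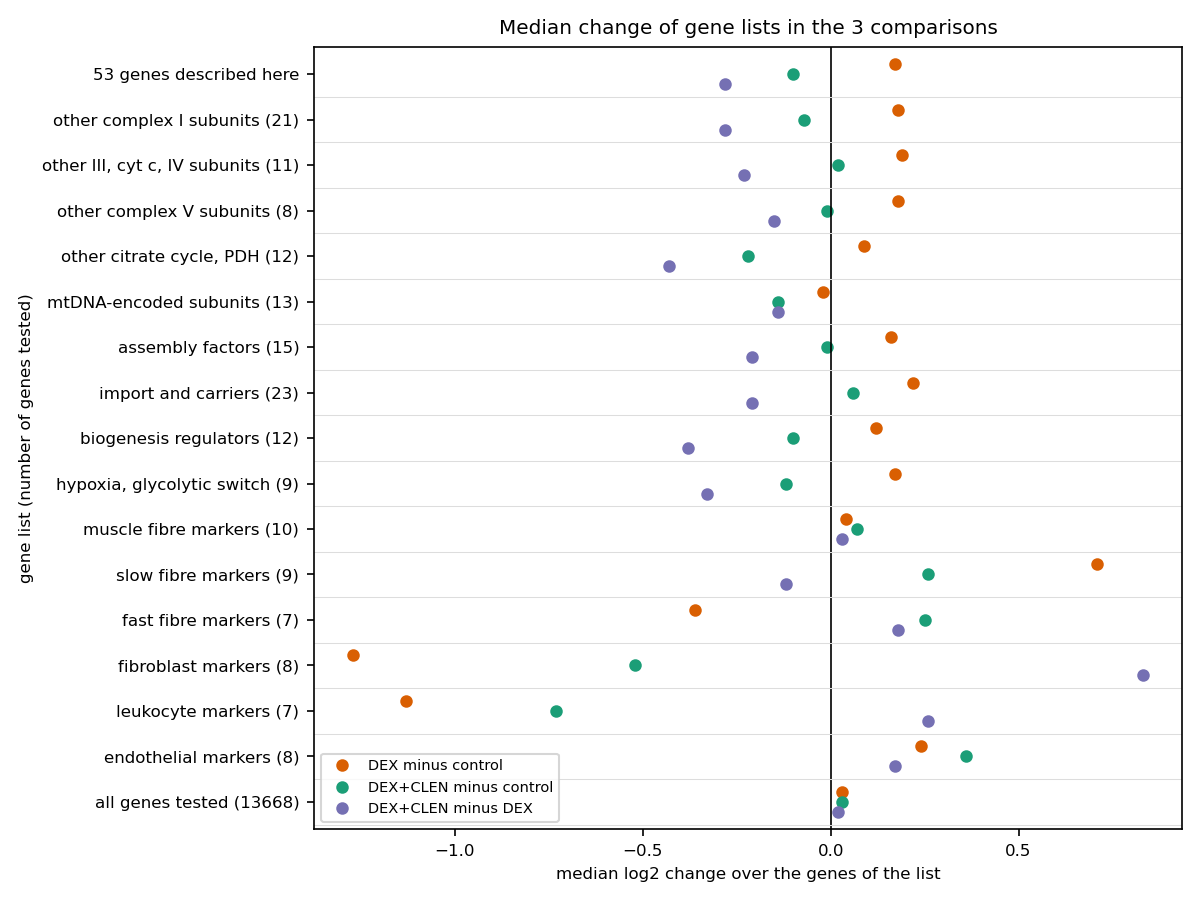
Median log2 change over the genes of each list (rows, with the number of genes tested) for dexamethasone minus control, the combination minus control and the combination minus dexamethasone. Lists of nuclear genes for the respiratory chain lie right of 0 for dexamethasone and left of 0 for the combination minus dexamethasone, and fibroblast markers lie on the opposite side in the first and last comparison.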

How the data were processed

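Total RNA of 12 animals was hybridised to 1-colour Agilent bovine arrays. Per the file headers, intensity values per spot were made by Agilent Feature Extraction 9.5.1.1. The table the authors deposited holds intensity too, on a scale shared by all arrays; it was used as an alternative. From the scanner files, log2 of the processed signal minus each array's 75th percentile was taken, outlier spots (1 to 7 per array) were left out and duplicate spots averaged. A probe was kept if 4 or more of the 12 arrays had it well above background (14703 of 21475). Names were updated through RefSeq (ARS-UCD2.0): 9990 probes by gene number, 3398 by accession, 394 by symbol and 3578 by description, and 4115 kept the file's name. The probe with the highest mean stood for a gene.

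The comparisons used limma 3.58.1 under R 4.3.3 (3 group means, eBayes), two-sided, with Benjamini-Hochberg adjustment over 13668 genes in each comparison. The fit was tested on simulated data, with independent genes and changes far larger than those described here. That simulation does not bear on small changes or on genes that vary together. Replicates are separate animals, and their numbers pair nothing. The number of arrays limits the precision. The genes and lists were chosen with earlier results of these data known. Values per animal are given for genes named by rule: the 5 of smallest p in each comparison, the extremes of each complex between the treated groups, the muscle-type subunits with their widely expressed forms, and the 3 of smallest p on the other lists. Of the 5 genes most like the mean, values per animal are given for GOT1 and the rest by correlation. IDH3A, CYCS, PPARGC1A, ESRRA, COX4I2, NDUFA4L2, PDK4, ND6 and CD3E were chosen after their values were seen. Cross-hybridisation was not tested. Probe, promoter and protein sequences were not used here.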

Additional observations from a re-analysis of the deposited data

Results flagged for a closer look

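Among the genes and list means checked, 4 had all 4 dexamethasone animals above the control mean and all 4 combination animals below it. By that criterion the difference was not tested, and the share of all genes that meet it was not computed. They were UQCRH, the hinge subunit of complex III, with a combination minus dexamethasone difference of -0.55 ± 0.16 (SE, n = 4 each; limma adjusted p = 0.244), COX7A2, the widely expressed complex IV subunit (-0.91 ± 0.21; limma adjusted p = 0.163), TFB2M, a transcription factor of the mitochondrial genome (-0.64 ± 0.16; limma adjusted p = 0.179), and the mean of the 12 biogenesis regulators (-0.52). Without the ESRRG probe that mean did not meet the criterion: dexamethasone replicate 1 lay at 0.00 and the control mean at 0.01. UQCRH, COX7A2 and TFB2M were among the genes of smallest p on their lists between the treated groups. Their meeting the criterion is therefore no separate evidence.

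Single animals lay far from the rest of their group in 7 of 210 groups of 4 checked, where chance flags about 1 in 20. For COX7A2 these were control replicate 4 at 2.08, against 2.30 to 2.34 in the others, and dexamethasone replicate 3 at 3.45, against 2.55 to 2.60. For ATPAF1, an assembly factor of the ATP synthase, combination replicate 4 lay at 0.28, against 0.84 to 0.93. For ND6, on mitochondrial DNA, control replicate 2 lay at 0.16, against -1.61 to -1.57. The mean of the 11 other genes of complex III, cytochrome c and complex IV was 2.14 in control replicate 3, against 1.95 to 1.98. The mean of the hypoxic and glycolytic switch genes was 2.61 in dexamethasone replicate 1, against 2.92 to 2.98. The mean of the adipocyte markers was -0.25 in dexamethasone replicate 2, against -3.74 to -3.41.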

How the results depend on the processing

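With 4 animals per group, 15 planned settings, 12 that left out 1 animal and 4 chosen after seeing the data were run. The median of the 53 genes kept its sign in each: 0.05 to 0.29 for dexamethasone minus control, -0.26 to -0.04 for the combination minus control and -0.47 to -0.21 for the combination minus dexamethasone. Several settings could not move it. These were a trend in eBayes, only the 2 groups compared, the mean over a gene's probes, saturated spots left out and no filter on dim probes. Leaving out an animal of the group not compared could not move it either. Scan day as a fixed block gave the same medians as scan day 2 only. The setting with a wider list covered 105 genes and is not in these ranges. Of the 53 genes, 1 to 20, 32 to 49 and 49 to 53 lay below 0. None was called in any fit with a test; 0 to 3, 0 to 7 and 1 to 19 had an unadjusted p under 0.05. Quantile normalization took the dexamethasone median to 0.05, with 19 of 53 below 0. Median scaling moved the median of all genes between the treated groups to -0.076, and no filter on dim probes moved it to 0.138, 0.106 and -0.069 in the 3 comparisons.

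Counts of all genes called moved more. For dexamethasone against control (85) they were 27 with no filter on dim probes, 13 with a 2-level scan block, 0 with scan day as a fixed block, 0 on scan day 2 only, 30 scaled to fibre markers, 29 scaled to those without MB and CASQ1 and 24 to 263 leaving out 1 animal, 263 without dexamethasone replicate 1. For the combination against control (6) they were 3 with quantile normalization, 3 with the percentile over probes above background on all arrays, 3 with only the 2 groups compared, 2 with the mean over a gene's probes, 2 scaled to fibre markers with or without MB and CASQ1 and 0 to 11 leaving out 1 animal. They were 0 with no filter, with a filter above background on all 12 arrays, with either scan block, with slide as a random block and on scan day 2 only. For the combination against dexamethasone (2) they were 1 with normexp background, 1 with the filter on all 12 arrays, 0 in the other settings that moved the count, and 0 to 74 leaving out 1 animal, 74 without dexamethasone replicate 1 and 15 without combination replicate 2. Where limma called 0 genes, 1086 to 1188, 899 to 1822 and 796 to 1655 genes had an unadjusted p under 0.05 in the 3 comparisons. No paired analysis was possible because replicate numbers were given in the order of the samples and the labels pair no animals.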
